A study of Mus musculus with 6 samples.

Results

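The 9 genes described here are *App*, which encodes the amyloid precursor protein, 6 genes of the proteases that cut it (*Adam10*, *Bace1*, *Ncstn*, *Aph1a*, *Psenen* and *Psen2*), *Mapt*, which encodes tau, and *Apoe*, which encodes apolipoprotein E. They were taken as a named list and matched by gene identifier to the deposited counts. All 9 had fragments (sequenced read pairs) in each of 6 libraries, and all 9 were among the 19084 genes tested of 56923 listed. The libraries hold polyadenylated RNA of mouse prefrontal cortex, dissected as the front end of the brain. In the KO group were 3 samples from mice with the constitutive *Pla2g4e* tm2a allele on C57BL/6N-A(tm1Brd), a reporter allele with a LacZ cassette that is designed to abolish the gene's product. The WT group had 3 samples labelled wild type, and the strain, age, sex and litter of the sequenced animals are not given in the labels. *Pla2g4e* encodes a calcium-dependent acyltransferase that makes N-acylphosphatidylethanolamines. From gene set enrichment in this tissue, the study reported overlap of the changes in KO with genes that are lower in Alzheimer's disease. Whether RNA of the amyloid, tau and ApoE genes themselves differed between the groups is the comparison made here.

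The amyloid precursor protein is a membrane protein of neurons and many other cells. When ADAM10 (alpha-secretase) cuts it first, the cut falls inside the amyloid-beta stretch and no amyloid-beta can form, whereas BACE1 (beta-secretase) cuts at the start of that stretch and leaves a stub from which gamma-secretase releases amyloid-beta. Gamma-secretase is a complex of a presenilin, which holds the catalytic site, with nicastrin, APH1 and PEN2. Tau binds microtubules in axons, and ApoE, secreted in the brain mainly by astrocytes, carries lipids to receptors on neurons. Deposits of amyloid-beta and of tau define Alzheimer's disease, and the ApoE allele is its strongest common genetic risk factor.

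The part of *App* that these enzymes contest is short, and it is shown because the secretase genes below are ordered by the cut their products make in it. It holds the 42 codons of amyloid-beta, from residue 672 of the protein of 770 residues encoded by the longest annotated transcript, App-206, on the minus strand of chromosome 16. The codons lie in exon 16 of 18 (chr16:84965670-84965720, 51 bases) and exon 17 (chr16:84962794-84962868, 75 bases). These positions and the sequence are those of GENCODE M21 on GRCm38, an earlier assembly than that of the counts. Capitals mark the amyloid-beta codons and lower case the 15 bases on either side, read 5′ to 3′.

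App amyloid-beta codons: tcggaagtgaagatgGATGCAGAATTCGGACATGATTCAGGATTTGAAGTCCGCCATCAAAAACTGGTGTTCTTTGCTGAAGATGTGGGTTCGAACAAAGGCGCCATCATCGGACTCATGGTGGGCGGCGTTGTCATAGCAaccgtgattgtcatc

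BACE1 cuts at the first capital, ADAM10 within the capitals and gamma-secretase near the last capital. The stretch is present in 5 of the 6 coding *App* transcripts of that annotation. The counts sum fragments over all exons of *App*, so they do not tell these transcripts apart.

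Library totals lay between 11792463 and 14594230 fragments, and the 9 genes took 0.316% to 0.339% of them. *Pla2g4e* itself had 5.95, 8.12 and 7.97 CPM in KO 1, KO 2 and KO 3 and 7.84, 11.3 and 13.2 CPM in WT 1, WT 2 and WT 3 (CPM, a gene's fragments per 1e+06 fragments of the library after TMM scaling). The log2 fold change, log2(KO/WT), was -0.55 (SE 0.21, limma unadjusted p = 0.0205, adjusted p = 0.635). Without KO 1 it was -0.39 (limma unadjusted p = 0.0923), and the unadjusted p was under 0.05 in 13 of 16 alternative analyses. The library labelled WT 1 lay within the KO range. Counts over the whole gene include exons that a trapped transcript can retain, so these counts are a weak check of the labels. *Xist*, the RNA of the inactive X chromosome, reached 1387 CPM in KO 1 and 969 CPM in WT 1 but no more than 0.246 CPM in the other 4 libraries. KO 1 also stood apart in markers of olfactory bulb, given below.

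None of the 9 genes passed the adjusted threshold of 0.05 in limma-voom. Neither did any of the 19084 genes tested (0%), while 1492 (7.82%) had an unadjusted p under 0.05. The quasi-likelihood test of edgeR gave 0 adjusted calls with 1507 unadjusted, and DESeq2 gave 1 with 902. In KO, 3 of the 9 had a higher and 6 a lower mean, with a median log2 fold change of -0.02 against 0.0085 over all genes, of which 9185 were below 0. *App* was the single member with an unadjusted p under 0.05, and it was lower in KO, as were 657 of all genes (3.44%). The remaining 835 genes of unadjusted p under 0.05 (4.38%) were higher in KO, and they included no member.

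*App* RNA was at 1248, 1389.6 and 1442 CPM in KO 1, KO 2 and KO 3 and at 1560.2, 1595 and 1466 CPM in WT 1, WT 2 and WT 3. All KO values lay below all WT values, which held for 1200 of all tested genes (6.29%), and the opposite order held for 1282 (6.72%). The gap was narrow: the highest KO library and the lowest WT library differed by less than the spread within either group. The means were 1360.1 ± 100.3 CPM in KO and 1540.4 ± 66.6 CPM in WT (SD, n = 3 each). The ratio KO/WT was 0.882 (95% interval 0.797 to 0.976), a log2 fold change of -0.18 (SE 0.07, limma unadjusted p = 0.0188, adjusted p = 0.635). In the order of unadjusted p, *App* was number 493 of all genes, and 37.7% of genes had a larger log2 fold change in size.

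The *App* difference depended in part on single libraries. Without KO 1, the library of lowest *App*, it was -0.12 on the log2 scale (limma unadjusted p = 0.0827). Without WT 1 it was -0.17 (unadjusted p = 0.0511), and without WT 2 it was -0.16 (unadjusted p = 0.0717). With both *Xist*-positive libraries left out, 2 KO and 2 WT libraries remained, and the log2 fold change was -0.11 (limma unadjusted p = 0.136). It was negative in each of 16 alternative analyses, between -0.23 and -0.11, with an unadjusted p under 0.05 in 12 of them and an adjusted p between 0.312 and 0.999.

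*Aplp2*, the ubiquitous homolog of *App*, gave a comparison within each library that no scaling factor can move. The log2 ratio of *App* to *Aplp2* counts was 1.30, 1.47 and 1.49 in KO 1, KO 2 and KO 3 and 1.57, 1.61 and 1.499 in the 3 WT libraries. It was lower in KO by a mean difference of -0.14, without overlap but with KO 3 at 1.489 close to WT 3 at 1.499. The ratio uses the same *App* counts, so it is no separate measurement of *App*. *Aplp2* itself was slightly lower in KO without overlap, at 501 to 514 CPM against 519 to 525 CPM in WT. The exact two-sided permutation test over the 6 libraries gave p = 0.1, the smallest that 3 against 3 can reach (adjusted over the 5 ratios computed here, 0.5). Without KO 1 the difference was -0.08.

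**Figure D1:**
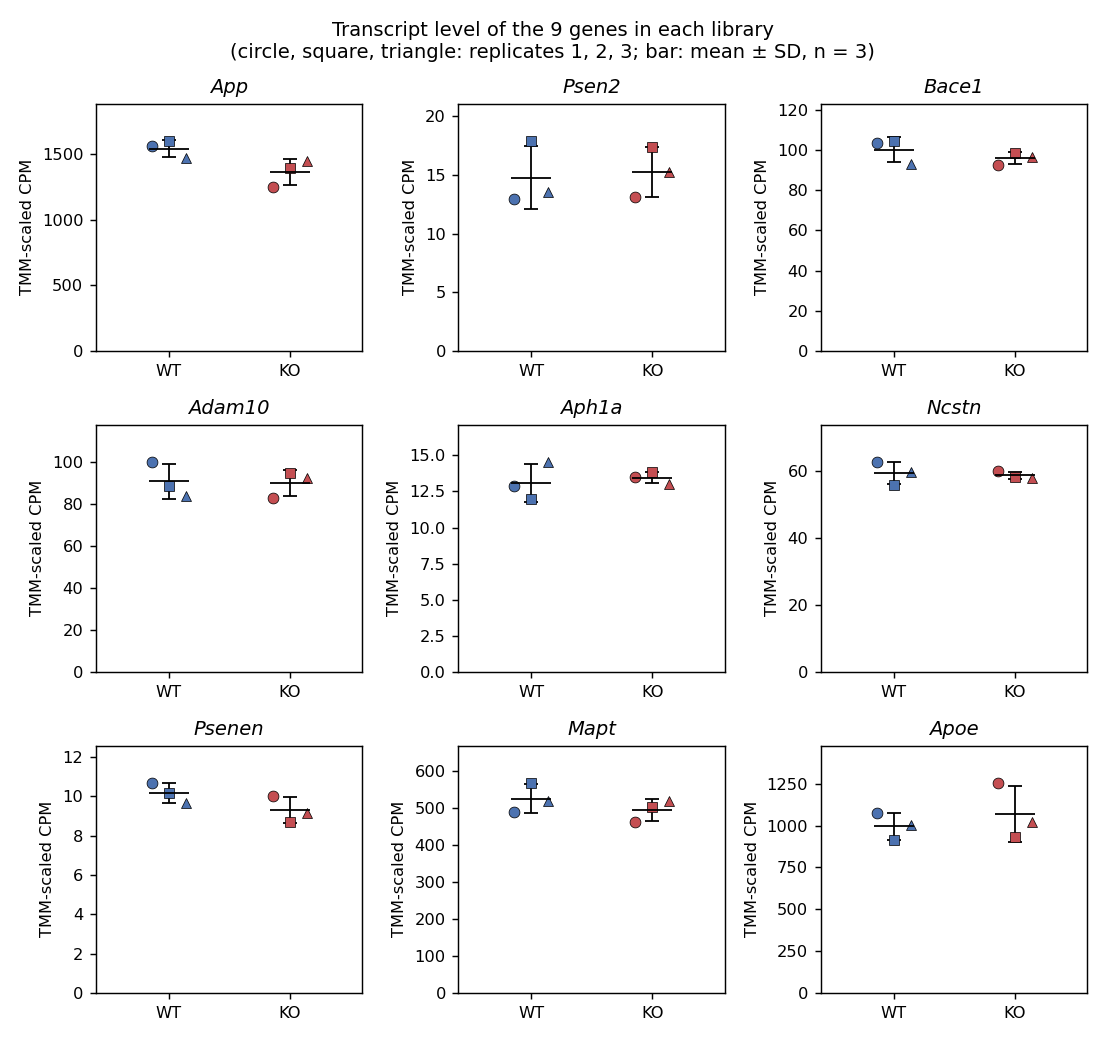
TMM-scaled CPM (vertical axes, each from 0) of the 9 genes in the 3 WT (blue) and 3 KO (red) libraries, with symbols for replicate number and bars for mean ± SD (n = 3). *App* is the one gene whose KO values (1248 to 1442 CPM) all lie below its WT values (1466 to 1595 CPM), and the groups overlap for the other 8.

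*Adam10*, the alpha-secretase, showed the smallest difference of the 9 genes. It was at 83.1, 94.8 and 92.5 CPM in the KO libraries and 99.9, 88.9 and 83.8 CPM in the WT libraries, so the lowest and the highest value were KO 1 and WT 1. The log2 fold change was -0.01 (95% interval -0.19 to 0.17, limma adjusted p = 0.977). *Bace1*, the beta-secretase, had 92.7, 98.7 and 96.5 CPM in KO against 103, 104 and 93.2 CPM in WT. WT 1 and WT 2 lay above all KO libraries and WT 3 among them, and the log2 fold change was -0.06 (95% interval -0.21 to 0.09, adjusted p = 0.819). Leaving out single libraries moved *Bace1* from -0.12 to -0.03, and without both *Xist*-positive libraries it was at -0.01. The balance of these competing enzymes, the log2 ratio of *Adam10* to *Bace1* counts, was -0.09 ± 0.06 in KO and -0.14 ± 0.09 in WT (SD, n = 3, exact permutation p = 0.7).

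None of the 4 gamma-secretase genes differed between the groups beyond its error. *Ncstn*, which encodes nicastrin, the subunit that receives the substrate, was at 59.8, 58.2 and 57.9 CPM in the KO libraries and 62.6, 55.8 and 59.7 CPM in WT, with all KO values inside the WT range. Its log2 fold change was -0.02 (95% interval -0.17 to 0.14, limma adjusted p = 0.962). *Aph1a*, which encodes a scaffold subunit, was at 13.5, 13.8 and 13.04 CPM in the KO libraries, next to 12.9, 11.95 and 14.5 CPM in WT. Here too the KO values lay inside the WT range, and the log2 fold change was 0.04 (95% interval -0.22 to 0.30, adjusted p = 0.942). *Psenen*, which encodes PEN2, the subunit needed for presenilin to become active, was at 10.003, 8.71 and 9.14 CPM in KO against 10.7, 10.1 and 9.65 CPM in WT. KO 2 and KO 3 were the lowest of the 6 libraries and KO 1 lay among WT, for a log2 fold change of -0.12 (95% interval -0.41 to 0.16, adjusted p = 0.803). *Psen2*, which encodes presenilin 2, was at 13.1, 17.3 and 15.2 CPM in KO 1 to 3 and 12.9, 17.8 and 13.5 CPM in WT. Both groups spanned nearly the same range, and the log2 fold change was 0.04 (95% interval -0.28 to 0.36, adjusted p = 0.9503).

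The last 3 of these genes had the fewest fragments of the 9, from 104 to 148 per library for *Psenen*, 146 to 200 for *Aph1a* and 165 to 218 for *Psen2*, and their intervals were the widest. Against *Ncstn* within each library, the log2 count ratio differed between KO and WT by 0.06 for *Aph1a* (exact permutation p = 0.5), -0.11 for *Psenen* (exact permutation p = 0.2) and 0.07 for *Psen2* (exact permutation p = 0.9). The *Aph1a* ratio was -2.15, -2.07 and -2.15 in KO 1 to 3 and -2.28, -2.22 and -2.04 in WT 1 to 3. WT 1 and WT 2 thus lay below all KO libraries and WT 3 above them. The *Psenen* ratio was -2.66 ± 0.08 in KO and -2.55 ± 0.09 in WT (SD, n = 3), with overlapping values. It was highest in WT 2, at -2.46, with WT 1 at -2.55 and WT 3 at -2.63. In this design the permutation p cannot go below 0.1, and adjusted over the 5 ratios it was between 0.5 and 0.9.

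*Mapt* was at 462, 503 and 518 CPM in KO 1, KO 2 and KO 3 and at 489, 566 and 517 CPM in WT 1, WT 2 and WT 3. KO 1 was the lowest and WT 2 the highest library, and the other 4 lay between 489 and 518 CPM. The means were 494 ± 29.2 CPM in KO and 524 ± 39.1 CPM in WT (SD, n = 3), a ratio of 0.943 (95% interval 0.848 to 1.05) and a log2 fold change of -0.08 (SE 0.07, limma unadjusted p = 0.257, adjusted p = 0.755). It was negative in all 16 alternatives, between -0.13 and -0.03, with an unadjusted p under 0.05 in none of them. Counts per gene do not separate the tau isoforms that arise by splicing.

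*Apoe* was at 1253, 934 and 1019 CPM in KO against 1075, 913 and 1003 CPM in WT. KO 1 was the highest library, and the other KO libraries lay inside the WT range. The means were 1069 ± 165 CPM in KO and 997 ± 81.1 CPM in WT (SD, n = 3), a ratio of 1.07 (95% interval 0.920 to 1.24) and a log2 fold change of 0.09 (SE 0.10, limma unadjusted p = 0.360, adjusted p = 0.803). Without KO 1 it was -0.03, and without both KO 1 and WT 1 it was 0.03. KO 1 thus had the lowest *App*, the lowest *Mapt* and the highest *Apoe* of the 6 libraries.

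**Figure D2:**
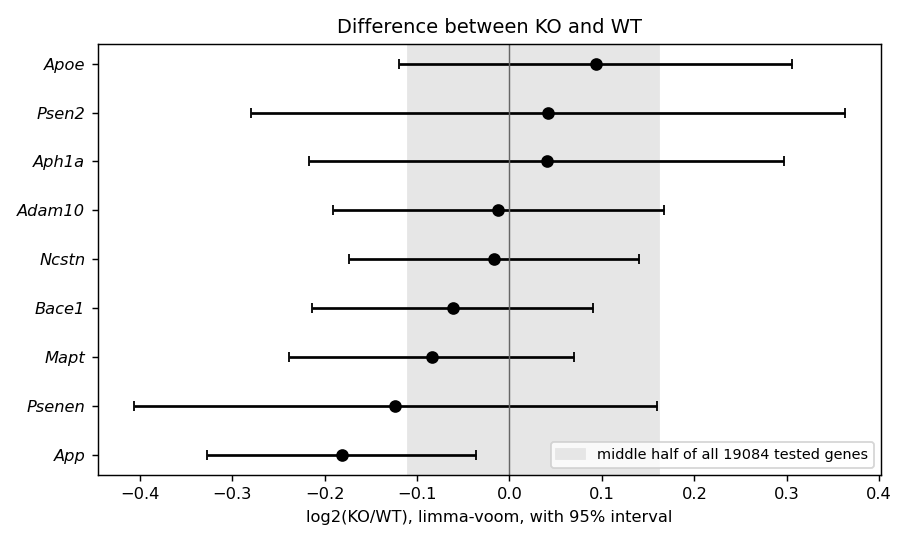
Log2(KO/WT) of the 9 genes with the 95% interval of the limma-voom fit, in order of size, over a grey band for the middle 50% of all tested genes. The interval of *App* (-0.33 to -0.04) is the only one that does not include 0, and those of *Psen2* and *Psenen* are the widest.

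Levels of different genes were compared per kb of merged exon, as TMM-scaled CPM per kb. *Apoe* was highest, with a mean of 483 and a range over the 6 libraries of 427 to 586 CPM per kb. *App* followed with 112 (96.0 to 123) and *Mapt* with 67.6 (61.3 to 75.2) CPM per kb. The secretase genes came well below, led by *Adam10* at 18.4 (16.9 to 20.3), *Bace1* at 15.5 (14.61 to 16.4) and *Ncstn* at 14.8 (14.04 to 15.7) CPM per kb. *Psenen* was at 7.62 (6.83 to 8.36), *Aph1a* at 3.85 (3.46 to 4.21) and *Psen2* at 3.46 (2.99 to 4.12) CPM per kb. Neighbours in this order did not overlap in range, except *Bace1* with *Ncstn* and *Aph1a* with *Psen2*. Among all tested genes *Apoe* stood at percentile 99.9 of the level per kb, *App* at 98.9 and *Mapt* at 97.7, and *Psen2* at 51.5.

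The order depended on the length used below the third place. The merged exons of *App* cover 12996 bases, more than its longest transcript in GENCODE M21 with 8167 bases, and those of *Psen2* cover 4332 against 2020 bases. With the longest coding transcript as the length, an alternative added after the data were seen, *Apoe*, *App*, *Mapt* and *Psenen* kept their places, *Ncstn* moved up to place 4 ahead of *Adam10* and *Bace1*, and *Psen2* (7.42 CPM per kb) passed *Aph1a* (4.64 CPM per kb).

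**Figure D3:**
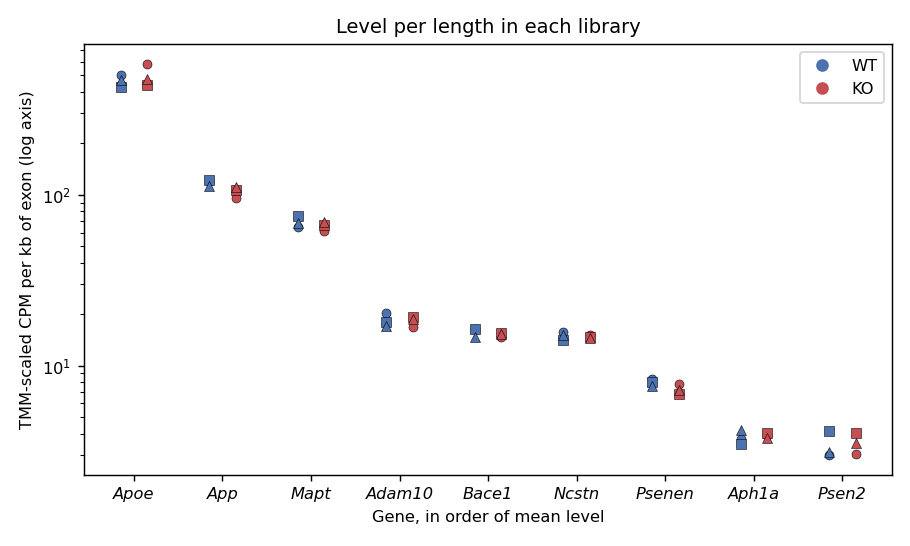
TMM-scaled CPM per kb of merged exon (log axis) of the 9 genes in each WT (blue) and KO (red) library, ordered by mean level. *Apoe* (mean 483), *App* (112) and *Mapt* (67.6 CPM per kb) stand above the secretase genes, which lie between 3.46 and 18.4.

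On GRCm39, the assembly of the counts, *App* lies at chr16:84746573-84970654, *Mapt* at chr11:104122216-104222916 and *Apoe* at chr7:19430034-19433113. *Adam10* (chr9:70586279-70687511) and *Bace1* (chr9:45749878-45775697) share a chromosome, as do *Ncstn* (chr1:171893580-171910362) and *Psen2* (chr1:180054569-180091003). *Aph1a* lies at chr3:95801281-95805600 and *Psenen* at chr7:30261288-30263052. Exons of the 9 genes share no base with another gene on the same strand, and fragments were counted by strand. On the opposite strand, 2061 exon bases of *Bace1* (32.5%) face *Rnf214* and the predicted genes *Gm16536* and *Gm49338*, and 445 of *Aph1a* (12.9%) face *Car14*. For *Ncstn*, *Psenen* and *App* the bases that face another gene number 195, 119 and 113, and for the other 4 genes there are none.

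Of 10 other genes of the APP family and the secretases, 5 were higher and 5 lower in KO, with a median log2 fold change of -0.0021 and no adjusted call. In this and all later lists, higher and lower are counted by the sign of the fitted log2 fold change, which was below 0 for 9185 of all 19084 genes. *Aplp1*, the neuronal homolog of *App*, was at 832, 884 and 887 CPM in KO, below 1006, 958 and 900.4 CPM in WT. Its values did not overlap either, and its log2 fold change was -0.14 (limma unadjusted p = 0.0468). *Gsap*, which encodes a gamma-secretase activating protein, had the highest log2 fold change of the list, 0.43 (unadjusted p = 0.0735), with 16.8 CPM in KO 1 and 8.43 to 11.4 CPM in the other 5 libraries, and it was 0.14 without KO 1 and 0.66 without KO 3. *Aplp1* had an unadjusted p under 0.05 in 5 of the 16 alternatives. *Aph1b* and *Aph1c* are near copies of each other, so their counts are uncertain.

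Among 18 genes of APP adaptors and trafficking, 14 were lower and 4 higher in KO, with a median of -0.05 and no adjusted call. *Apbb1*, which encodes the adaptor Fe65 that binds the APP tail, was the one with an unadjusted p under 0.05 (log2 fold change -0.18, limma unadjusted p = 0.0472). It was under 0.05 in 7 of the 16 alternatives, and without KO 1 the log2 fold change was -0.11 (unadjusted p = 0.195). Its relatives marked the ends of the list, *Apbb2* at -0.19 (-0.12 without KO 1 and -0.31 without KO 2) and *Apbb3* at 0.17. *Sorl1*, the sorting receptor that holds APP back from the endosome, was at -0.13 (unadjusted p = 0.163) and ranged from -0.25 without WT 3 (unadjusted p = 0.00477) to -0.04 without WT 1.

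Of 13 genes of amyloid-beta degradation and clearance, 7 were higher and 6 lower. *Ctsb*, the lysosomal protease cathepsin B, was at 358, 352 and 369 CPM in KO, below 431, 426 and 386 CPM in WT. The groups did not overlap, the log2 fold change was -0.20 (limma unadjusted p = 0.00732, adjusted p = 0.635), and the unadjusted p stayed under 0.05 in 16 of 16 alternatives, with adjusted p between 0.255 and 0.999. *Ece2*, an endothelin-converting metalloprotease, was at 10.6, 7.20 and 8.12 CPM in KO, above 6.90, 5.57 and 7.14 CPM in WT, a log2 fold change of 0.41 (unadjusted p = 0.0461). That p was under 0.05 in 7 of 16 alternatives, and without KO 1 *Ece2* was at 0.23 (unadjusted p = 0.232). The best known amyloid-beta proteases, *Ide* and *Mme*, were at 0.08 and -0.02 on the log2 scale.

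The 27 tau kinases, phosphatases and their partners were lower in KO in 24 cases and higher in 3, with a median of -0.09. The lower direction was not particular to this list: of the markers given below, 6 of 7 pan-neuronal and 8 of 8 excitatory ones were lower, with medians of -0.14 and -0.21. The catalytic subunit gene of PP2A, *Ppp2ca*, which encodes the main tau phosphatase, was at 301, 316 and 297 CPM in KO against 344, 338 and 329 CPM in WT (log2 fold change -0.15, limma unadjusted p = 0.0289). *Ppp5c*, another phosphatase that acts on tau, had a log2 fold change of -0.15 (unadjusted p = 0.0310), and neither gene overlapped between groups. For each of them the unadjusted p was under 0.05 in 10 of 16 alternatives. The kinase genes *Gsk3b* and *Cdk5* were at -0.09 and -0.14. *Fkbp5*, a glucocorticoid-responsive chaperone partner, was the highest at 0.35 (unadjusted p = 0.208) and ranged over libraries from 19.1 CPM in WT 3 to 50.5 CPM in KO 1. It was at 0.02 without KO 1 and at 0.62 without KO 2.

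Among 15 other microtubule-associated proteins, 11 were lower and 4 higher. The stathmin genes *Stmn2*, *Stmn3* and *Stmn4*, whose products bind free tubulin, had log2 fold changes of -0.21, -0.22 and -0.15 (limma unadjusted p = 0.0208, 0.0205 and 0.0420), under 0.05 in 12, 13 and 9 of 16 alternatives. Without WT 1 *Stmn3* was at -0.13 (unadjusted p = 0.106). *Dcx*, the doublecortin gene of migrating young neurons, was at 137, 82.2 and 75.7 CPM in KO against 61.7, 47.1 and 81.9 CPM in WT (log2 fold change 0.62, unadjusted p = 0.0136), with KO 1 highest and WT 3 close to the other KO libraries. Without KO 1 *Dcx* was at 0.34 (unadjusted p = 0.0437), and DESeq2 on all 6 libraries gave an unadjusted p of 0.0868. *Map2* and *Map1a*, the abundant dendritic proteins, were at 0.01 and 0.02.

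Of 17 genes of ApoE receptors and lipid loading, 10 were higher and 7 lower. *Abca1*, the transporter that loads lipid onto ApoE, was at 62.4, 43.0 and 42.6 CPM in KO against 36.4, 28.5 and 47.9 CPM in WT (log2 fold change 0.41, limma unadjusted p = 0.0393). *Apod*, another lipid carrier of the brain, was at 175.5, 109.6 and 109.7 CPM in KO against 97.5, 76.0 and 113 CPM in WT (log2 fold change 0.45, unadjusted p = 0.0240). For both genes KO 1 was the highest library and WT 3 lay among the KO libraries. Without KO 1 *Abca1* was at 0.22 (limma unadjusted p = 0.177) and *Apod* at 0.22 (unadjusted p = 0.0984), without WT 2 they were at 0.23 and 0.29 (unadjusted p = 0.203 and 0.120), and DESeq2 gave unadjusted p of 0.173 and 0.114. The receptor gene *Lrp1* was at -0.0045, and *Sorl1*, which is in this list too, was the lowest at -0.13. No gene of the 6 lists had an adjusted p under 0.05.

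**Figure D4:**
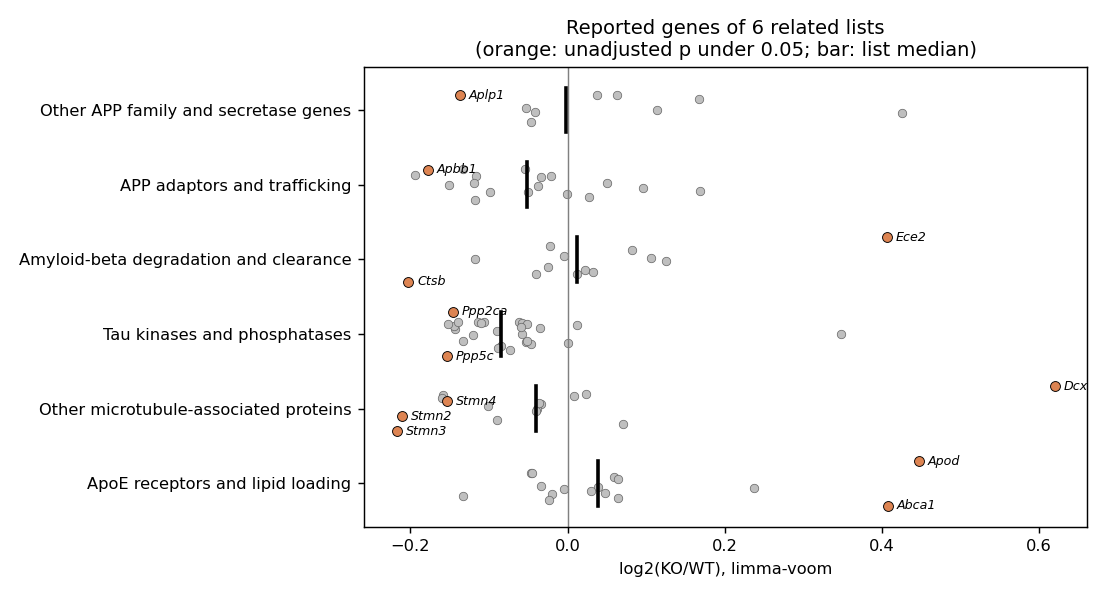
Log2(KO/WT) of the reported genes of the 6 lists (points), with the median of all tested genes of a list as a bar and the genes of unadjusted p under 0.05 in orange. List medians lie between -0.09 (tau kinases and phosphatases) and 0.04 (ApoE receptors and lipid loading), and the points farthest out are *Dcx* at 0.62 and *Apod* at 0.45, which are at 0.34 and 0.22 without KO 1.

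Cell type markers moved with some of these values, and their part in them was not tested. In bulk tissue, fewer cells of a type and less RNA per cell cannot be told apart. Counts of higher and lower markers follow the sign of the fitted log2 fold change, which can differ from the order of the group means. Markers of cortical excitatory neurons, which check the labelled tissue, had fragments in each library. By the fitted value 8 of 8 were lower in KO (log2 fold change -0.42 to -0.00076). The value of -0.00076 is that of *Camk2a* (limma unadjusted p = 0.993), whose mean was slightly higher in KO (3884.5 CPM) than in WT (3880.8 CPM). These markers included 3 with an unadjusted p under 0.05 in limma, among them *Neurod6* and *Nrgn*. Their summed level was 6224 to 7464 CPM in KO and 6988 to 7479 CPM in WT. Of the pan-neuronal markers, 6 of 7 were lower, *Snap25* with an unadjusted p under 0.05 (summed 7405 to 7846 CPM in KO and 7846 to 8843 CPM in WT). Of the astrocyte markers, 9 of 10 were higher by the fitted value, none with an unadjusted p under 0.05 (4957 to 5457 CPM in KO and 4706 to 5452 CPM in WT). *Gfap* was among these 9, although its mean was lower in KO (138.5 CPM) than in WT (154.6 CPM, with 329 CPM in WT 1). Oligodendrocyte markers were higher in 8 of 8 (1735 to 2871 CPM in WT and 2233 to 2594 CPM in KO). Striatal markers were higher in 9 of 9, with *Penk* at an unadjusted p under 0.05, and summed to 341 to 448 CPM in KO and 255 to 426 CPM in WT.

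Of the inhibitory neuron markers, 4 of 7 were lower and 3 higher. *Sst* at -0.50, *Lhx6* at -0.33 and *Pvalb* at -0.23 on the log2 scale had an unadjusted p under 0.05 and no overlap. Over all tested genes, 3.44% were lower with such a p and 6.29% were lower without overlap. The general markers *Gad1*, *Gad2* and *Slc32a1* went the other way, at 0.33, 0.10 and 0.05, with overlap. The sum of the 7 markers was 662 to 1039 CPM in KO and 644 to 859 CPM in WT. Microglia markers were lower in 6 of 9, with *Aif1* at an unadjusted p under 0.05. Lower in KO were also 3 of 5 markers of oligodendrocyte precursors, 4 of 6 of endothelium and 4 of 5 of blood, none with an unadjusted p under 0.05.

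KO 1, the library of lowest *App* and highest *Apoe*, also had the lowest excitatory markers, -0.32 on the log2 scale from the mean of the 6 libraries, and the highest olfactory bulb markers, 2.16 above that mean. Summed over 6 genes, olfactory bulb markers were at 392 CPM in KO 1, 173 in KO 2 and 137 in KO 3 and at 194, 98.2 and 139 CPM in WT 1, WT 2 and WT 3. All 6 were higher in KO, *Th* with an unadjusted p under 0.05, and of them *Eomes* had no fragment in WT 2. WT 2, the library of highest *App*, had the lowest olfactory bulb and the highest excitatory and pan-neuronal markers. Without KO 1 the *App* difference was -0.12 on the log2 scale and its limma unadjusted p was above 0.05, as given above. The part of these markers in the *App* difference was not tested. Of the 5 choroid plexus markers *Folr1* had too few fragments to be tested, and *Ttr* had 328 fragments in WT 2 against 3 to 27 in the other 5 libraries.

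**Figure D5:**
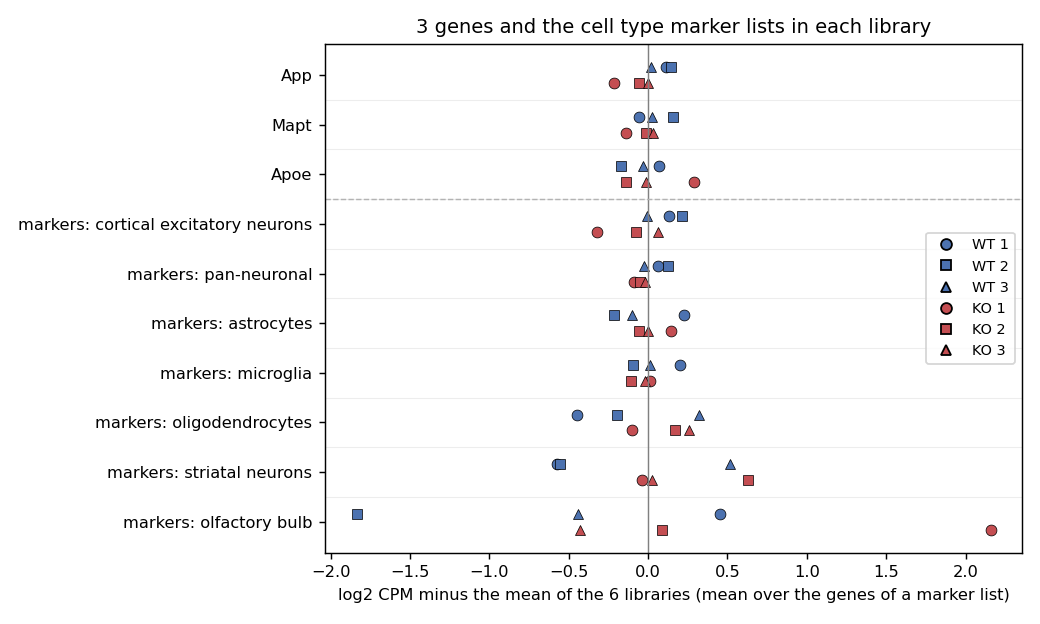
Log2 CPM of *App*, *Mapt* and *Apoe* and the mean log2 CPM of 7 marker lists in each library, as the difference from the mean of the 6 libraries (WT blue, KO red, symbols by replicate). KO 1 (red circle) lies lowest for *App* (-0.21) and excitatory markers (-0.32) and highest for *Apoe* (0.29) and olfactory bulb markers (2.16).

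The genes whose pattern over the 6 libraries was most like that of a member were found by the root-mean-square difference of centred log2 CPM, among 15522 genes whose mean log2 CPM was 0 or more. Nearest to *App* were *Pitpnc1* at 0.012, *Rab3ip* at 0.018 and *Dhdds* at 0.018, where the median over all genes was 0.179. Nearest to *Mapt* were *Ncoa1*, *Napa* and *Dop1b*, between 0.015 and 0.017 against a median of 0.159. Nearest to *Apoe* were *Lrp4*, *Crot* and *Fyb*, between 0.031 and 0.040 against a median of 0.206. With 6 libraries and this many genes near matches are always found, so the names are a description.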

How the data were processed

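Libraries of polyadenylated RNA kept the strand and were sequenced from both ends. The deposited values are raw counts of fragments per gene, 1 table a sample, with no normalization by the authors, who aligned with STAR 2.7.9a after FastQC 0.11.8 (submitters' processing notes). Per the file headers, exon fragments were summed per gene with featureCounts 1.6.0 (strand option 2) on GENCODE M31 of GRCm39, although the study's methods give an older assembly. No option for fragments that map to several places is listed, so genes with near copies lose counts. Symbols came from GENCODE M21 by gene identifier (52073 of 56923 matched). Exon lengths are those the authors deposited beside the counts.

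Groups and replicate numbers came from the sample titles. The labels do not say that replicates are separate animals, so p-values measure the spread between these samples. No pair of libraries agreed within sampling noise. Genes with at least 6 fragments in at least 1 library were tested by limma-voom (limma 3.58.1, TMM factors of edgeR 4.0.16, R 4.3.3), two-sided, without covariates, with Benjamini-Hochberg adjustment over all tested genes. The filter and the fit follow the study's methods, and the threshold of 0.05 was chosen here. Within-library ratios were compared by exact permutation over the 6 libraries. The fit was tested on simulated counts. Fragments carry no molecular identifiers.

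The members and lists were chosen with earlier results of these data known. Named were the 9 members, *Pla2g4e*, the genes of each list with an unadjusted p under 0.05 or an end of its range, and the 3 genes most like *App*, *Mapt* and *Apoe*. Genes beyond this rule (*Ide*, *Mme*, *Gsk3b*, *Cdk5*, *Map2*, *Map1a*, *Lrp1*, *Aph1b*, *Aph1c* and single markers) were named after their values were seen. Some genes of the lists are counted but not reported here by name. Alternatives were edgeR's quasi-likelihood test, DESeq2 1.42.0 and its size factors, library totals, 2 other filters, quality weights per library, a block for replicate number, an *Xist* covariate, leaving out both *Xist*-positive libraries, and leaving out each library in turn.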

Additional observations from a re-analysis of the deposited data

How the results depend on the processing

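Of the 9 genes, *App*, *Bace1*, *Psenen* and *Mapt* kept their negative sign in all 16 alternatives, and no member had an adjusted p under 0.05 in any. The sign turned in at least 1 alternative for *Adam10*, *Ncstn*, *Psen2*, *Aph1a* and *Apoe*, and the cause was not tested. *Adam10* was at 0.013 with library totals alone, 0.017 with quality weights and 0.12 with both *Xist*-positive libraries left out, and leaving out single libraries took it from -0.072 to 0.059. *Ncstn* was at 0.0090 with library totals alone and 0.0065 without both *Xist*-positive libraries, and from -0.060 to 0.022 when single libraries were left out. Leaving out single libraries moved *Apoe* from -0.028 to 0.18, *Psen2* from -0.057 to 0.18, *Aph1a* from -0.023 to 0.11 and the *Psen2* to *Ncstn* log2 ratio from -0.059 to 0.26. Counts over all genes moved more. The number with an adjusted p under 0.05 was 1 with DESeq2, 24 with the *Xist* covariate, 3 without both *Xist*-positive libraries and 0 to 1 when single libraries were left out. The number with an unadjusted p under 0.05 was 902 with DESeq2, 696 without both *Xist*-positive libraries and 782 (without WT 2) to 2239 (without WT 3) when single libraries were left out, and 830 without KO 1. Among the members it was 0 without both *Xist*-positive libraries and 0 to 1 when single libraries were left out. Library totals alone shifted the median of all genes to 0.03, and the unadjusted calls then split into 418 lower and 1071 higher, against 657 and 835. DESeq2 split them into 463 and 439, and the fit without WT 3 into 1211 and 1028. The order per kb was the same on the TPM scale, and 4 genes kept their place with the longest transcript as length.

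With the replicate number as a block, 0 genes had an adjusted p under 0.05 and 1693 an unadjusted one, and *App* was at -0.18 (limma unadjusted p = 0.0235). Deviations of same-numbered libraries correlated at 0.356, 0.0887 and -0.032, and those of differently numbered libraries at -0.287 to 0.271. With 3 libraries a group, these correlations cannot decide whether a shared number marks a pair. Both *Xist*-positive libraries carry the number 1. The replicate block changed no call of a member.

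Depth limits *Psenen*, *Aph1a* and *Psen2* most, with at most 218 fragments a library. Protein, cleavage products and splice isoforms were not measured by these counts.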
